A study of Homo sapiens with 12 samples.

Results

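DYRK1A, DYRK1B, DYRK2, DYRK3 and DYRK4, FAM53A, FAM53B and FAM53C, and PNRC1 and PNRC2 were followed in 2 cell lines, EW8-RRM1-KO and TC71-RRM1-KO. These are 10 of the 20771 genes in a table of raw read counts, found by symbol. DYRK1B and FAM53C were chosen because their counts rose more in EW8 than in TC71, and PNRC1 was named for comparison with them. The other 7 entered by family name. The values of DYRK1B, FAM53C and PNRC1 are therefore given as a description with no test, while the other 7 were tested. All 10 passed the filter on low counts, which left 16515 genes.

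EW8 and TC71 are Ewing sarcoma cell lines, from a bone and soft tissue tumor driven by a fusion of EWSR1 with an ETS gene such as FLI1. In both lines, made by single-cell cloning, CRISPR/Cas9 had disrupted the endogenous RRM1, the large subunit of ribonucleotide reductase. RRM1 protein came instead from a codon-optimized, Cas9-resistant lentiviral transgene that is on while doxycycline is in the medium. Of the 12 libraries, 3 per line were labelled 0 h (doxycycline present) and 3 per line 48 h (doxycycline absent for that time). Every group thus carried both the knockout and the transgene. No group with intact RRM1 was taken off doxycycline, so loss of RRM1 and removal of the drug cannot be told apart.

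Depth was 18468485 to 35698991 counts per library. Replicates of a group varied beyond counting noise (chi-square per gene of 1.80 to 4.16 for most pairs). Replicate 3 of TC71 at 48 h stood farther from the other 2 of its group (6.28 and 7.54). Without it the TC71 log2 fold changes were 0.52 for DYRK1B, 0.86 for FAM53C and 0.64 for PNRC1, and the same numbers of tested members rose and fell. The sources do not say whether replicates were separate cultures, so the p-values measure the spread between these libraries, which may be technical. In bulk RNA, a change in the mix of cells and a change in RNA per cell cannot be told apart. CPM below is counts scaled by library size and TMM factors. The Ewing sarcoma markers CD99 (236 to 343 CPM), STEAP1 (164 to 258 CPM), PRKCB, NR0B1, FLI1, EWSR1 and NKX2-2 were present in every library. CCK had 7 to 86 counts. The leukocyte marker PTPRC had 0 to 5 counts and the epithelial marker EPCAM 2 to 43, while PECAM1 and MYOD1 are not listed in the count table. RRM1 was higher in the libraries labelled 48 h than in those labelled 0 h, with 166 to 317 counts against 1201 to 1514 in EW8 and 316 to 422 against 674 to 778 in TC71. Since both lines carry the knockout at both times and the transgene is recoded, RRM1 counts give no check of the 0 h and 48 h labels.

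DYRK proteins are dual-specificity kinases. They phosphorylate a tyrosine of their own activation loop as they are being made, and then act on serines and threonines of other proteins. DYRK1A, encoded on chromosome 21, and DYRK1B, also called MIRK, are nuclear kinases that hold cells out of the cycle by phosphorylating D-type cyclins, p27 (CDKN1B) and LIN52, the step that assembles the DREAM repressor complex. DYRK2, DYRK3 and DYRK4 form the other class. FAM53 proteins are small and poorly characterized. FAM53C is known to bind DYRK1A and DYRK1B and FAM53B to promote entry of beta-catenin into the nucleus. PNRC1 and PNRC2 are proline-rich nuclear receptor coactivators that also bind the mRNA decapping machinery, and PNRC2 links it to UPF1 in nonsense-mediated decay.

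The promoters of DYRK1B, FAM53C and PNRC1 are shown, since of the 10 members these had the largest fold increases in EW8. Each window runs from 250 bases before to 50 bases after the start site in RefSeq (GRCh38.p14), on the strand of the gene. Windows were searched on both strands for the AP-1 motif TGANTCA, the cyclic AMP element TGACGTCA, the EGR motif GCGTGGGCG and the CArG box of serum response factor. FAM53C lies at chr5:138338016-138338315 (+ strand), PNRC1 at chr6:89080501-89080800 (+ strand) and DYRK1B at chr19:39834113-39834412 (- strand). Capitals mark the CArG box.
FAM53C: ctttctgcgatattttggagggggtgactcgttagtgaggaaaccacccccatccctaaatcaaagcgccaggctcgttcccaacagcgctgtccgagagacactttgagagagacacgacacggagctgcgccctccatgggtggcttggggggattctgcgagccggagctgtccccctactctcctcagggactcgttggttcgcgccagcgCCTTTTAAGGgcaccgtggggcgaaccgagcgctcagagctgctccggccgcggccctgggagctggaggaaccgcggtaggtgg
PNRC1: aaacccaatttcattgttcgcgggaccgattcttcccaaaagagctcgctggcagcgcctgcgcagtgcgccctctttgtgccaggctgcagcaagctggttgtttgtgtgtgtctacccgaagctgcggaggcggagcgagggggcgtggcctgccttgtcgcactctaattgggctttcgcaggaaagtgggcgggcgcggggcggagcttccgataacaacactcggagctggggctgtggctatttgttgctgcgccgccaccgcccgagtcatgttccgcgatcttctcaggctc
DYRK1B: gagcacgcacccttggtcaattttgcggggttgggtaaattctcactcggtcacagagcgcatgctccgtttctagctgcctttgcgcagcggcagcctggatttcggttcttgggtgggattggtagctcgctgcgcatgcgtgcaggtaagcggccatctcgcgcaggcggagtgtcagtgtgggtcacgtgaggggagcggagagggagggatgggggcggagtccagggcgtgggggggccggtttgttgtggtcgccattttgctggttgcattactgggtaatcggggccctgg

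The FAM53C window held 1 CArG box, which starts 35 bases before the start site. Of all 35116 promoter windows, 1.29% held a CArG box, 7.71% the AP-1 motif, 1.85% the cyclic AMP element and 0.795% the EGR motif. None of the 4 motifs was in the windows of PNRC1 or DYRK1B, so these letters are not in those 300 bases. Of the other members, the AP-1 motif was in 2 of 5 windows of DYRK4 (TGACTCA, the same site in overlapping windows) and 1 of 6 of DYRK1A (TGATTCA). None of the 4 was in the windows of DYRK3, FAM53A, FAM53B or PNRC2. A promoter of DYRK2 was not analysed here.

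DYRK1B, FAM53C and PNRC1 each had at least 5-fold more RNA at 48 h than at 0 h in EW8 and under 2-fold more in TC71. The log2 fold changes of their paralogs lay between -1.12 and 0.98 in EW8 and between -0.51 and 0.41 in TC71. DYRK2 was downregulated in EW8 and fell in TC71, FAM53A rose in both lines, and DYRK1A and DYRK3 rose and FAM53B fell in EW8. DYRK4 and PNRC2 passed the test in neither line. A gene rose or fell when its adjusted p was below 0.05 in the quasi-likelihood test of edgeR (Benjamini-Hochberg over the 16515 genes), and was upregulated or downregulated when its fold change also exceeded 2. Of the 7 genes tested, 3 rose in EW8, where 37.0% of all genes rose, and 2 fell, where 31.6% of all genes fell. In TC71, 1 of 7 rose (22.9% of all genes) and 1 fell (19.2%). These counts are close to the shares of all genes. The median log2 fold change of the 7 was 0.10 in EW8, against 0.03 over all genes, and 0.08 in TC71, against 0.00.

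**Figure D1:**
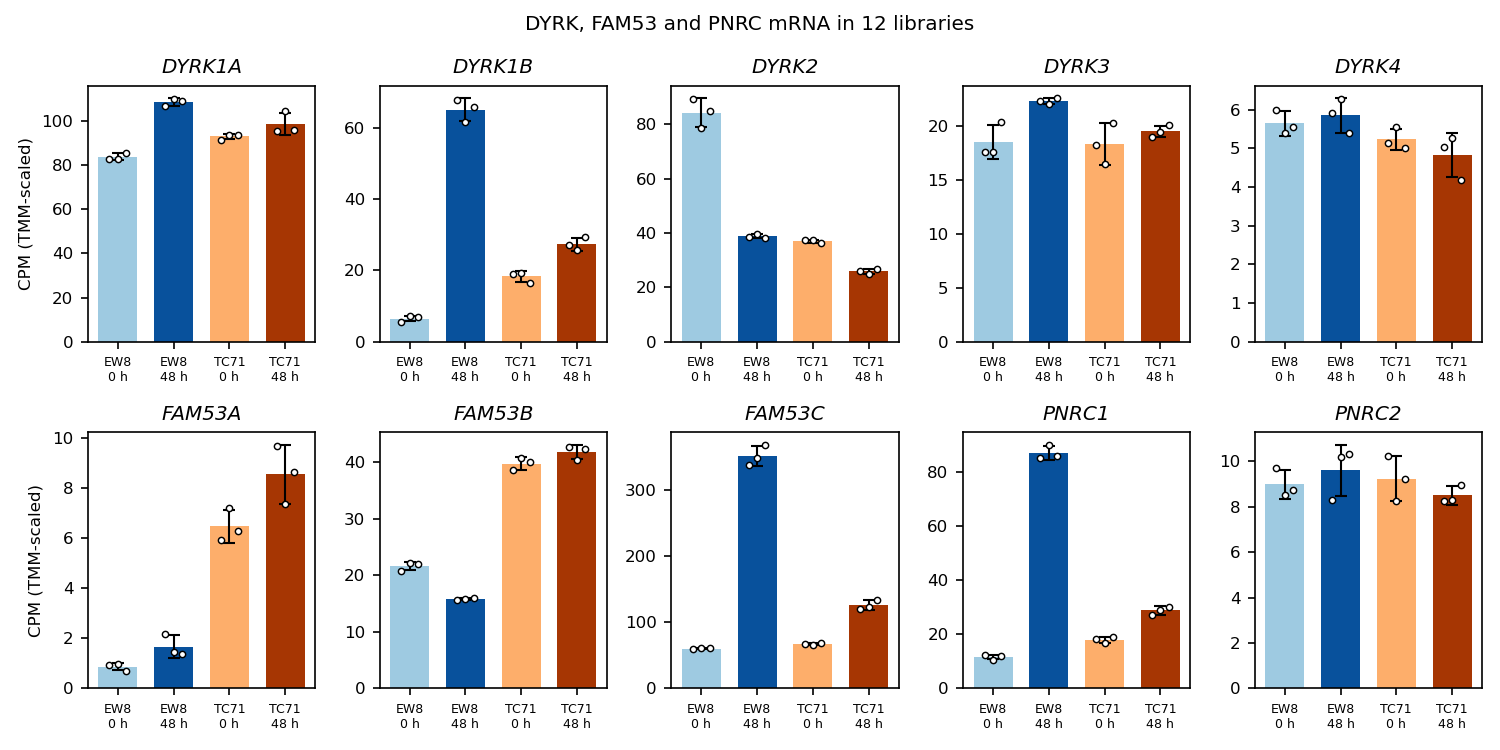
RNA of each gene in CPM (TMM-scaled counts, linear axes from 0, 1 scale per gene). Bars are the mean and error bars the SD of 3 libraries, drawn as points, for EW8 and TC71 at 0 h and 48 h. DYRK1B, FAM53C and PNRC1 stand highest in EW8 at 48 h (means of 65.0, 351 and 87.0 CPM), while DYRK2 is highest in EW8 at 0 h (84.2 CPM).

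DYRK1A (ENSG00000157540, chromosome 21, 37365573 to 37526358, + strand in GRCh38) is the kinase whose extra copy is studied in Down syndrome. In EW8 it had 82.8, 82.8 and 85.6 CPM at 0 h and 107, 110.0 and 109 CPM at 48 h. TC71 had 91.4, 93.7 and 93.5 CPM at 0 h and 95.2, 104 and 96.0 CPM at 48 h. The times did not overlap in either line, but the TC71 libraries at 48 h were barely above those at 0 h. The rise of DYRK1A in EW8 was 0.37 on the log2 scale (SE 0.05, adjusted p = 6.98e-09, higher in 3 of 3 libraries). The TC71 value was 0.08 (SE 0.04, adjusted p = 0.131).

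DYRK1B (ENSG00000105204, chromosome 19, 39825350 to 39834201, - strand) is the quiescence-associated paralog of DYRK1A. The EW8 libraries held 128, 124 and 224 reads of it before removal of doxycycline (5.61, 7.10 and 6.83 CPM) and 1276, 1226 and 1342 afterwards (67.8, 61.5 and 65.7 CPM). Those of TC71 held 19.1, 19.4 and 16.5 CPM at 0 h and 27.0, 25.7 and 29.2 CPM at 48 h. TC71 thus started higher and ended lower than EW8, and no groups overlapped. The fold change was 9.98 in EW8 (log2 3.32, SE 0.08, 95% interval 3.15 to 3.48) and 1.49 in TC71 (log2 0.58, SE 0.07). On the log2 scale the response was 2.95 above that of DYRK1A in EW8 and 0.49 above it in TC71. Of the DYRK1B exon bases, 354 (11.1%) also belong to a protein-coding gene on the same strand, ENSG00000291312, which has no row in the count table, so how its reads were counted is not known.

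DYRK2 (ENSG00000127334, chromosome 12, 67648338 to 67665406, + strand) is a kinase that also serves as a scaffold of a ubiquitin ligase with DDB1 and DCAF1. It had 89.2, 78.5 and 84.9 CPM in EW8 at 0 h and 38.5, 39.7 and 38.2 CPM at 48 h. In TC71 it had 37.2, 37.3 and 36.3 CPM at 0 h and 26.2, 24.9 and 26.6 CPM at 48 h. The EW8 libraries at 48 h thus stood just above the TC71 libraries at 0 h, and within each line the times did not overlap. DYRK2 was downregulated 2.17-fold in EW8 (log2 fold change -1.12, SE 0.05, adjusted p = 4.06e-19), beside 3.35% of all genes downregulated there. Scaled by total counts alone it still fell (-0.99, adjusted p = 1.77e-16) but by less than 2-fold. It fell in TC71 with a log2 fold change of -0.51 (SE 0.06, adjusted p = 6.22e-09) that stayed under 2-fold, where 0.854% of all genes were downregulated. The response of DYRK1B exceeded that of DYRK2 by 4.44 in EW8 and by 1.09 in TC71 on the log2 scale.

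DYRK3 (ENSG00000143479, chromosome 1, 206635536 to 206684419, + strand) dissolves stress granules and other condensates. It had 17.6, 17.6 and 20.4 CPM in EW8 at 0 h and 22.3, 22.1 and 22.6 CPM at 48 h, which did not overlap. It rose with a log2 fold change of 0.25 (SE 0.08, adjusted p = 0.00376), but without replicate 1 of EW8 at 0 h the value was 0.18 and the call was lost (adjusted p = 0.0666). In TC71 the times overlapped and the log2 fold change was 0.09 (SE 0.07, adjusted p = 0.360).

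DYRK4 (ENSG00000010219, chromosome 12, 4562208 to 4615302, + strand), best known from testis, had 94 to 182 counts per library and 4.17 to 6.27 CPM. Its times overlapped in both lines. The log2 fold change was 0.05 in EW8 (95% interval -0.19 to 0.29, adjusted p = 0.732) and -0.12 in TC71 (-0.36 to 0.12, adjusted p = 0.432).

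FAM53A (ENSG00000174137, chromosome 4, 1617915 to 1684313, - strand) was the least abundant member in EW8. The EW8 libraries held only 21, 17 and 23 reads of it before removal of doxycycline (0.920, 0.974 and 0.702 CPM) and 41, 29 and 28 afterwards (2.18, 1.45 and 1.37 CPM). The TC71 libraries held 159, 147 and 152 before (5.92, 7.21 and 6.29 CPM) and 254, 197 and 279 after (9.69, 7.35 and 8.63 CPM). Times did not overlap in either line. FAM53A rose in EW8 (log2 fold change 0.98, SE 0.25, adjusted p = 0.000929) and also TC71 (0.41, SE 0.12, adjusted p = 0.00500), with the wider error in EW8, where its counts were lowest. The EW8 value lay just under 2-fold and passed it with total counts alone (1.11, adjusted p = 0.000377) and without any 1 of 4 EW8 libraries (1.01 to 1.11).

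FAM53B (ENSG00000189319, chromosome 10, 124619292 to 124744378, - strand) had 20.8, 22.1 and 22.1 CPM in EW8 at 0 h and 15.6, 15.9 and 16.0 CPM at 48 h. In TC71 it had 38.5, 40.8 and 40.0 CPM at 0 h and 42.8, 40.4 and 42.4 CPM at 48 h. The EW8 times were separate, whereas the TC71 times overlapped. FAM53B fell in EW8 (log2 fold change -0.45, SE 0.07, adjusted p = 2.95e-07), while the TC71 value was 0.08 (SE 0.05, adjusted p = 0.268). Of its exon bases, 1080 (16.5%) are shared on the same strand with ENSG00000258539, which has no row in the count table.

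FAM53C (ENSG00000120709, chromosome 5, 138331935 to 138349729, + strand) is the member that binds DYRK1A and DYRK1B. Reads of it numbered 1340, 1053 and 1987 before doxycycline removal in EW8 (58.7, 60.3 and 60.6 CPM) and 6353, 6950 and 7518 afterwards (338, 348 and 368 CPM). TC71 had 67.1, 65.6 and 68.3 CPM at 0 h and 120, 123 and 134 CPM at 48 h. The lines were close at 0 h and far apart at 48 h. The fold change was 5.87 in EW8 (log2 2.55, SE 0.05) and 1.88 in TC71 (log2 0.91, SE 0.05). On the log2 scale it exceeded the response of FAM53B by 3.01 in EW8 and 0.83 in TC71, and that of FAM53A by 1.57 and 0.50. CDC25C, on the opposite strand, shares 293 (4.16%) of the FAM53C exon bases. A long noncoding RNA on that strand, ENSG00000249971, shares 411 (5.83%) and has no row in the count table. CDC25C had 14.3 to 29.1 CPM, below FAM53C in every library, and how the authors' counting used strand is not given in the sources used here.

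PNRC1 (ENSG00000146278, chromosome 6, 89080751 to 89085160, + strand) acts in nucleus and nucleolus. EW8 libraries held 278, 184 and 387 reads of it before removal of doxycycline (12.2, 10.5 and 11.8 CPM) and 1600, 1795 and 1756 afterwards (85.1, 90.0 and 85.9 CPM). The TC71 levels were 18.3, 16.7 and 18.8 CPM at 0 h and 27.1, 29.1 and 30.1 CPM at 48 h. As for DYRK1B, TC71 was higher at 0 h and EW8 at 48 h. The fold change was 7.51 in EW8 (log2 2.91, SE 0.07) and 1.60 in TC71 (log2 0.68, SE 0.06).

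PNRC2 (ENSG00000189266, chromosome 1, 23956839 to 23963462, + strand) had 8.24 to 10.3 CPM over all 12 libraries, and every group overlapped every other. Its log2 fold change was 0.10 in EW8 (95% interval -0.11 to 0.31, adjusted p = 0.416) and -0.13 in TC71 (-0.33 to 0.08, adjusted p = 0.323). The response of PNRC1 exceeded that of PNRC2 by 2.81 in EW8 and 0.80 in TC71 on the log2 scale.

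**Figure D2:**
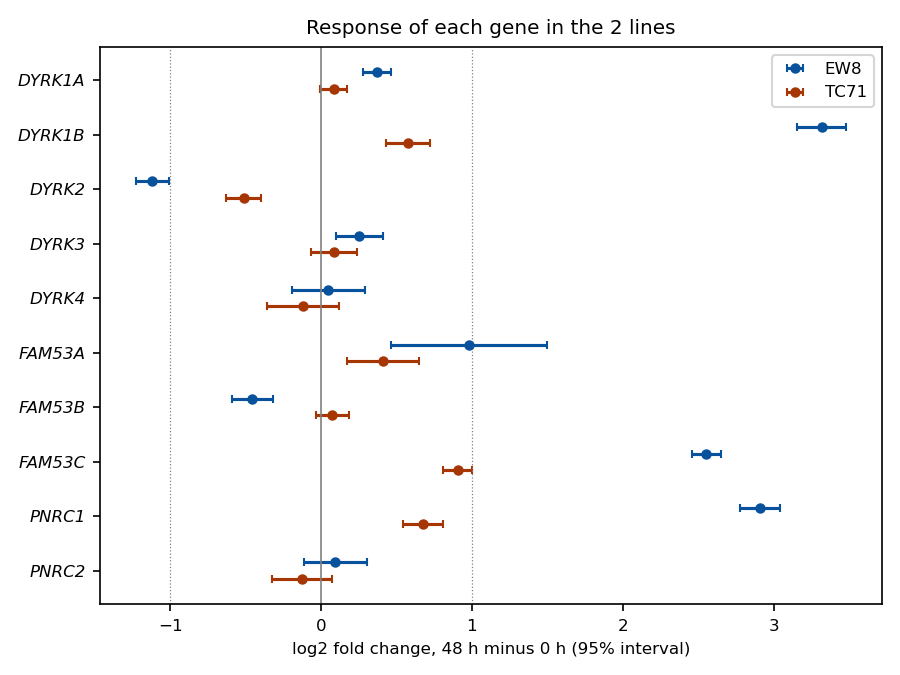
Log2 fold change from 0 h to 48 h for each gene in EW8 and TC71 (horizontal axis), with 95% intervals from the edgeR fit. Dotted lines mark a 2-fold change. In EW8, DYRK1B (3.32), PNRC1 (2.91) and FAM53C (2.55) lie far to the right and DYRK2 (-1.12) to the left, and DYRK4 and PNRC2 include 0 in both lines.

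Whether the lines responded differently was tested as an interaction for the 7 genes not chosen on it. Of the 7, 1 response was larger in EW8 (25.7% of all genes) and 2 were lower (22.4%), and none differed by over 2-fold in either direction (7.28% and 0.981% of all genes). DYRK1A rose more in EW8, by 0.29 on the log2 scale (SE 0.06, adjusted p = 0.000294). DYRK2 fell more there (difference -0.61, SE 0.08, adjusted p = 8.28e-08), and FAM53B differed by -0.53 (SE 0.09, adjusted p = 3.99e-06). For the others the test was not passed, and the intervals of the difference were wide. They ran from -0.05 to 0.38 for DYRK3, from -0.17 to 0.51 for DYRK4, from 0.00 to 1.14 for FAM53A (adjusted p = 0.0921) and from -0.07 to 0.51 for PNRC2. As a description of how they were chosen, the differences of DYRK1B and FAM53C were 2.74 (SE 0.11) and 1.65 (SE 0.07), and that of PNRC1 was 2.23 (SE 0.09). The median difference was 0.17 over the 7 genes tested and 0.04 over all genes.

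Before doxycycline was removed, the lines already differed in several of these genes. Of the 7 tested, 1 was higher in EW8 (32.8% of all genes) and 3 were lower (32.9%). DYRK2 was 2.28-fold higher in EW8 (log2 1.19, SE 0.05, adjusted p = 5.82e-20), beside 4.77% of all genes over 2-fold higher. FAM53A was 7.65-fold lower (log2 -2.93, SE 0.19, adjusted p = 9.00e-16), beside 11.9% of all genes over 2-fold lower. FAM53B was 1.83-fold lower (log2 -0.87, SE 0.06, adjusted p = 3.87e-15) and DYRK1A 1.11-fold lower (log2 -0.15, SE 0.05, adjusted p = 0.00468). DYRK3 (log2 0.02, adjusted p = 0.792), DYRK4 (0.12, adjusted p = 0.397) and PNRC2 (-0.05, adjusted p = 0.706) did not pass. Untested, DYRK1B was 2.81-fold lower in EW8, PNRC1 1.55-fold and FAM53C 1.12-fold. These comparisons share the 0 h libraries with the responses above. At 48 h the order had turned for DYRK1A, DYRK1B, FAM53C and PNRC1, whose 3 EW8 libraries then all lay above the 3 TC71 libraries.

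To compare levels between genes, CPM was divided by exon length in kilobases (the union of a gene's exons in GENCODE 44). On this scale the DYRK family of EW8 at 0 h was led by DYRK2 (8.89 ± 0.565, SD, n = 3 libraries), followed by DYRK1A (3.13), DYRK1B (2.04), DYRK3 (1.80) and DYRK4 (0.801), with DYRK1B and DYRK3 overlapping. At 48 h DYRK1B led with 20.4 ± 1.02 CPM per kilobase, ahead of DYRK2 (4.10) and DYRK1A (4.05), which overlapped, DYRK3 (2.17) and DYRK4 (0.830). In TC71, DYRK1B led already at 0 h with 5.74 ± 0.485 CPM per kilobase, and it stood at 8.55 ± 0.564 at 48 h. DYRK2 passed from the 2nd to the 3rd place there, with 3.90 CPM per kilobase at 0 h and 2.73 at 48 h, while DYRK1A had 3.47 and 3.68. With the longest transcript as the length, DYRK1A stood ahead of DYRK2 in 3 of the 4 groups, so the order of this pair in EW8 at 48 h and in TC71 at 0 h depended on the length used.

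The make-up of the family changed most in EW8. DYRK1B was 12.3% ± 1.71 of the summed DYRK level per length at 0 h and 64.6% ± 1.46 at 48 h (SD, n = 3 libraries each), while the share of DYRK2 went from 53.3% to 13.0%. In TC71 the DYRK1B share was 36.7% ± 2.23 at 0 h and 48.7% ± 1.92 at 48 h, and that of DYRK2 25.0% and 15.6%. The ratio of DYRK1B to DYRK1A was 0.652 ± 0.0772 at 0 h and 5.03 ± 0.325 at 48 h in EW8. It was 1.65 ± 0.149 and 2.33 ± 0.247 in TC71, so the kinase that was the lesser of the pair in EW8 at 0 h was the greater one in the other groups.

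FAM53C was the most abundant FAM53 gene per length in all 4 groups, with 8.49 and 49.8 CPM per kilobase in EW8 at 0 h and 48 h and 9.50 and 17.8 in TC71. FAM53B followed with 3.32 and 2.42 in EW8 and 6.09 and 6.41 in TC71, and FAM53A was last, from 0.204 to 2.02. FAM53C went from 70.7% to 94.6% of the family in EW8 and from 55.5% to 67.9% in TC71. The ratio of FAM53C to FAM53B went from 2.56 ± 0.0429 to 20.6 ± 0.645 in EW8 and from 1.56 ± 0.0638 to 2.78 ± 0.173 in TC71. PNRC1 and PNRC2 were close in EW8 at 0 h (3.85 and 3.26 CPM per kilobase) and far apart at 48 h (29.1 and 3.47). In TC71 PNRC1 ranged from 5.57 to 6.29 CPM per kilobase at 0 h and averaged 9.61 at 48 h, and PNRC2 averaged 3.34 and 3.08.

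**Figure D3:**
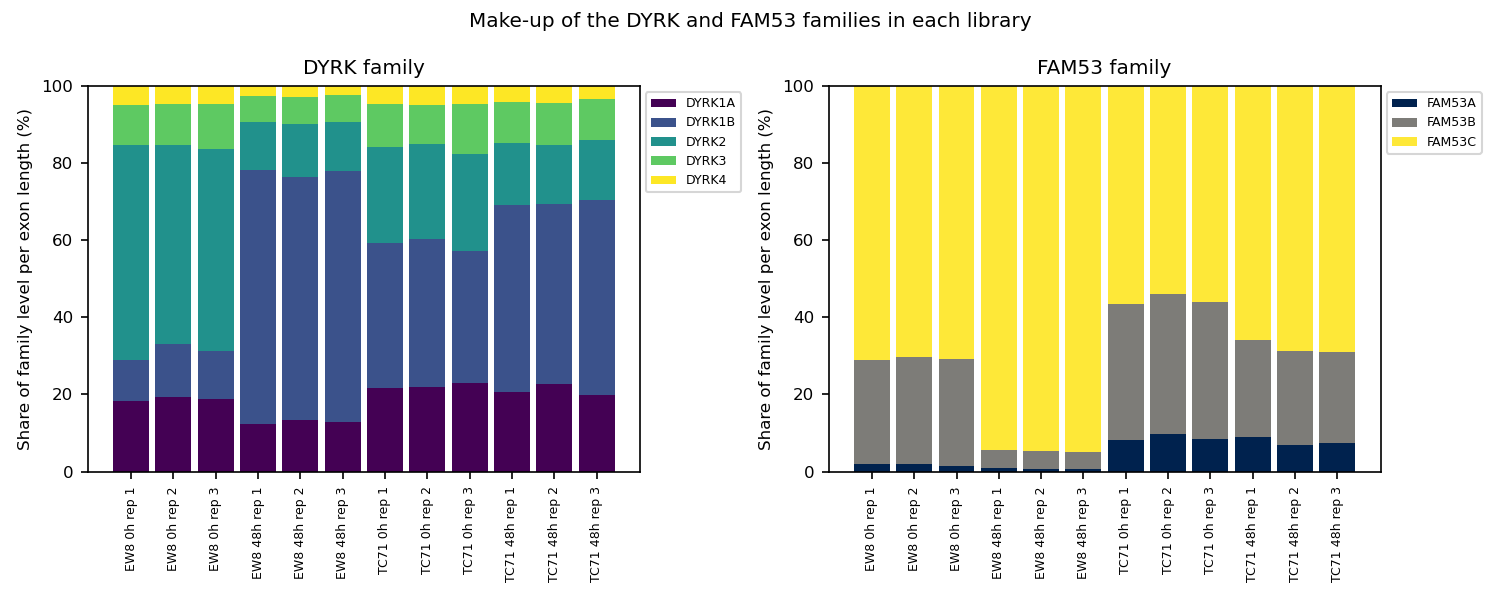
Share of each gene in the summed level of its family (%, CPM per kilobase of exon) in every library, DYRK genes on the left and FAM53 genes on the right. In EW8 the DYRK2 block shrinks from 53.3% to 13.0% and the DYRK1B block grows from 12.3% to 64.6% between 0 h and 48 h, and the FAM53C block grows from 70.7% to 94.6%.

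The genes closest in profile were sought by the root-mean-square difference of log2 CPM, each gene centred on its own mean, over the 12 libraries and 16514 other genes. These 12 points share groups and libraries, so the values are a description. DYRK1B was closest to MXD1 (0.243), a repressor that competes with c-Myc for MAX, then SEMA3B (0.261), AF117829.1 (0.265), TMEM86A (0.279) and XIRP2 (0.283). A small difference on this scale, which adds a prior count of 2, need not mean an equal fold change. TMEM86A had fitted log2 fold changes of 5.28 in EW8 and 1.39 in TC71, against 3.32 and 0.58 for DYRK1B. FAM53C was closest to SLC25A25 (0.0788), a mitochondrial carrier, then IQGAP3 (0.117), the long noncoding RNA CYTOR (0.138), LZTS3 (0.147) and the histone demethylase KDM6B (0.147). PNRC1 was closest to RRM1 itself (0.107), then LZTS3 (0.176), MXD1 (0.188), FAM53C (0.188) and the homeobox gene ISL2 (0.202). Among the 3 genes themselves, PNRC1 ranked 15 for FAM53C and 17 for DYRK1B (0.364), and FAM53C ranked 93 for DYRK1B (0.497).

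The proteins that DYRK kinases phosphorylate or bind were counted from a list of 30 genes, all tested. Like the other lists below, it was written with earlier results of these data known, so its counts are a description. In EW8 18 rose (37.0% of all genes) and 8 fell (31.6%), with 6 upregulated (13.9%) and a median log2 fold change of 0.33, against 0.03 over all genes. In TC71 9 rose (22.9% of all genes) and 7 fell (19.2%), with 3 upregulated (3.26%) and a median of 0.07, against 0.00. JUN, whose protein is a DYRK2 substrate, had 4.06 to 4.87 CPM in EW8 at 0 h and 408 to 423 CPM at 48 h, a log2 fold change of 6.55 (SE 0.09, adjusted p = 6.28e-24). In TC71 it went from 9.85 to 11.0 CPM at 0 h to 205 to 257 CPM at 48 h (log2 4.44, SE 0.08, adjusted p = 1.06e-20). SPRY2, an inhibitor of receptor tyrosine kinase signaling, was upregulated in both lines, by 1.72 on the log2 scale for EW8 (adjusted p = 6.86e-17) and 1.01 for TC71 (adjusted p = 1.36e-10).

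NFATC1, whose nuclear export DYRK kinases promote, was upregulated in EW8 (log2 1.33, adjusted p = 8.37e-10) and also rose in TC71 (0.70, adjusted p = 0.000380). AKT1S1 (PRAS40), the mTORC1 inhibitor that DYRK3 phosphorylates, was upregulated in EW8 (1.26, adjusted p = 1.67e-12). Its TC71 value was 0.16 (adjusted p = 0.0637), which passed without EW8 48 h replicate 2, TC71 0 h replicate 2 or TC71 48 h replicate 2 (adjusted p of 0.0482, 0.00901 and 0.00136). NFATC2 was also upregulated in EW8 (2.31, SE 0.14, adjusted p = 3.75e-16). In TC71 it had 0 to 4 counts per library at 0 h and 6 to 8 at 48 h, so that its value there (1.74, SE 0.62, adjusted p = 0.0231) is not firm, and the call was lost without TC71 0 h replicate 1 or 2 or TC71 48 h replicate 1 (adjusted p of 0.114, 0.103 and 0.0695). It lies outside the rule for named genes and was picked after its values were seen, as were the genes in the rest of this paragraph. Those were chosen for their roles. DCAF7, the scaffold of DYRK1A and DYRK1B, fell in both lines (-0.71, adjusted p = 4.86e-18, and -0.30, adjusted p = 3.72e-08). CDKN1B rose in EW8 (0.61, adjusted p = 2.25e-13), with 0.10 in TC71 (adjusted p = 0.103). Of the D-type cyclins, CCND1 rose slightly in both (0.11, adjusted p = 0.00332, and 0.18, adjusted p = 2.66e-05). CCND3 rose more in both (0.44, adjusted p = 3.06e-07, and 0.58, adjusted p = 1.46e-08). CCND2 passed in neither line (0.43, adjusted p = 0.0875, and 0.14, adjusted p = 0.921). LIN52, counted in the DREAM list below and not in the list of DYRK substrates, passed in neither line (0.05, adjusted p = 0.575, and -0.05, adjusted p = 0.614).

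The DREAM complex represses cell cycle genes in quiescence. The list of 12 genes held its subunits and also MYBL2, which is not a subunit of it. Of the 12, 4 rose (37.0% of all genes) and 5 fell (31.6%) in EW8, with a median of -0.08. In TC71 4 rose (22.9%) and 2 fell (19.2%), with a median of 0.00. None of the 12 was upregulated or downregulated in either line. MYBL2, named here for that reason, is counted among those that rose in both lines (0.43, adjusted p = 1.34e-10, and 0.51, adjusted p = 2.65e-11). RBBP4 fell in EW8 (-0.56, adjusted p = 1.03e-14) and had 0.01 in TC71 (adjusted p = 0.844). TFDP1, the E2F partner, fell in EW8 (-0.46, adjusted p = 1.29e-12) and rose in TC71 (0.22, adjusted p = 1.77e-05), and the difference was -0.67 (adjusted p = 2.84e-12). RBL2 (p130) fell in EW8 (-0.48, adjusted p = 1.49e-09), with -0.11 in TC71 (adjusted p = 0.0844). LIN54, the DNA-binding subunit, rose in both (0.61, adjusted p = 5.61e-11, and 0.36, adjusted p = 1.21e-05).

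Among the kinases nearest to the DYRK family, 8 of 9 listed genes were tested, since HIPK4 has no row. In EW8 3 rose (37.0% of all genes) and 4 fell (31.6%), 2 were upregulated (13.9%), and the median was -0.04. In TC71 1 rose (22.9%) and 3 fell (19.2%), with a median of -0.10. The CLK kinases phosphorylate splicing factors. CLK1 had 51.5 to 57.0 CPM in EW8 at 0 h and 179 to 190 CPM at 48 h (log2 1.77, SE 0.06, adjusted p = 9.69e-17), and rose in TC71 (0.21, adjusted p = 0.00912). The TC71 call was lost without replicate 1 or replicate 2 of TC71 at 0 h, when 0 of these kinases rose. CLK4 went from 10.1 to 11.1 CPM to 26.2 to 33.2 CPM in EW8 (1.48, adjusted p = 5.34e-16), with 0.18 in TC71 (adjusted p = 0.116, and 0.0165 without TC71 0 h replicate 3). CLK3 rose in EW8 (0.74, adjusted p = 5.28e-15), with 0.11 in TC71 (adjusted p = 0.0887, and 0.0478 without TC71 48 h replicate 2). CLK2 fell in both lines (-0.51, adjusted p = 2.13e-06, and -0.20, adjusted p = 0.0234). The CLK2 libraries overlapped in TC71, and the call there was lost without TC71 0 h replicate 3 (-0.14, adjusted p = 0.116) or TC71 48 h replicate 3 (-0.11, adjusted p = 0.148).

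Of 21 listed genes of decapping and nonsense-mediated decay, the pathway of PNRC2, 20 were tested, since DCP1A has no row. In EW8 8 rose (37.0% of all genes) and 8 fell (31.6%), with a median of 0.06. In TC71 4 rose (22.9%) and 4 fell (19.2%), with a median of 0.04. None was upregulated or downregulated, and the counts are near the shares of all genes. The exonuclease XRN1 (0.71, adjusted p = 3.90e-14), the decapping enzyme DCP2 (0.59, adjusted p = 1.20e-12) and its enhancer EDC3 (0.68, adjusted p = 1.34e-15) rose in EW8. DCP1B fell in EW8 (-0.68, adjusted p = 0.00226) and likewise in TC71 (-0.42, adjusted p = 0.0143), where the call was lost without TC71 0 h replicate 2 (adjusted p = 0.0937). In TC71 the values were 0.09 for XRN1 (adjusted p = 0.215), 0.06 for DCP2 (adjusted p = 0.313) and 0.20 for EDC3, which rose (adjusted p = 0.000412).

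**Figure D4:**
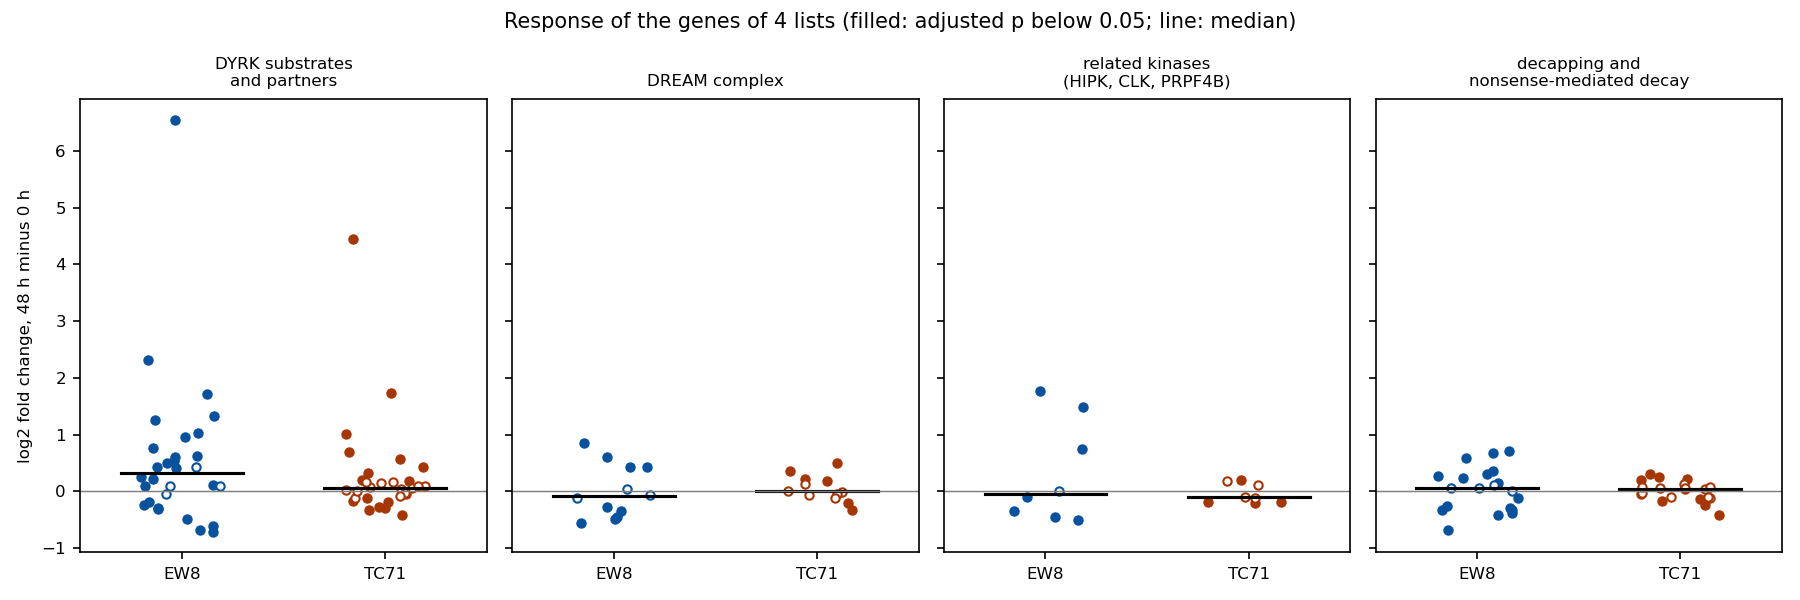
Log2 fold change from 0 h to 48 h (vertical axis) of the genes of the 4 lists in EW8 and TC71. Filled points passed the test at an adjusted p below 0.05, open points did not, and the line is the list's median (from -0.10 to 0.33). JUN is the point far above the others in both lines (6.55 and 4.44).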

How the data were processed

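RNA of 12 libraries (3 per line and time) was sequenced from polyA-selected, stranded libraries as paired-end reads. The deposited values are raw counts per gene, which the authors made from reads checked with FastQC and mapped to hg38 with STAR. The counting tool, annotation and strand setting are not given in the sources used here. The smallest gene total was 21, so low counts had been removed before deposit. Samples were grouped by their labels.

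Counts were tested with the robust quasi-likelihood test of edgeR 4.0.16 in R 4.3.3, two-sided, on all 12 libraries in 4 groups with TMM factors and no block. filterByExpr (minimum count 10, minimum total 15) kept 16515 genes, and p-values were adjusted over all of them by Benjamini-Hochberg. The lines were compared in their response to doxycycline removal (48 h against 0 h), in the difference of these responses and at 0 h. Lengths and coordinates came from GENCODE 44 and promoters from RefSeq (GRCh38.p14), in which 9 of the 10 members matched. The fit was tested on simulated data.

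The members and the 4 lists, which were written from general knowledge, were chosen with earlier results of these data known. Named genes were the 10 members, RRM1, the 5 nearest profiles (prior count 2) of DYRK1B, FAM53C and PNRC1, and up to 4 genes per list with the largest change in EW8 among those called in either line with a mean of at least 20 counts in every group. Same-numbered replicates were checked for pairing and did not vary together. Alternatives were other size factors, the Wald test of DESeq2 1.42.0, other filters, a replicate block, a fit that was not robust, each line alone, leaving out each library, and the longest transcript as length, the last for family shares chosen after seeing the data. Some genes of the lists are counted but not reported here by name.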

Additional observations from a re-analysis of the deposited data

Results flagged for a closer look

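The following genes of the lists responded differently in the lines by the test of the difference itself (edgeR's interaction, Benjamini-Hochberg adjusted), with a difference above 2-fold. The log2 fold change of JUN was larger in EW8 by 2.11 (adjusted p = 4.50e-11), that of CLK1 by 1.56 (adjusted p = 3.34e-12), that of CLK4 by 1.30 (adjusted p = 6.19e-10) and that of AKT1S1 by 1.10 (adjusted p = 1.24e-08). In each case the 3 EW8 libraries at 48 h lay above the 3 EW8 libraries at 0 h and above all TC71 libraries. The genes were picked by their difference in these same libraries, so this is a description and no added test. The 0 h level of JUN was lower in EW8 than in TC71 (log2 -1.23), as were those of CLK1 (log2 -0.84) and AKT1S1 (log2 -0.22, adjusted p = 0.00863), while CLK4 had -0.20 (adjusted p = 0.0809). The flagged genes were 2 of the 30 DYRK substrates and partners and 2 of the 8 related kinases tested. They were 0 of the 12 genes of the DREAM list and 0 of the 20 decapping genes tested. Over all genes 7.28% had a difference of this size and direction. Outlying samples were not tested in groups of 3 libraries.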

How the results depend on the processing

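Over 21 alternatives, 12 of them leaving out 1 library, the fold changes of DYRK1B, FAM53C and PNRC1 in EW8 stayed between 3.19 and 3.45, 2.50 and 2.68, and 2.83 and 3.03 on the log2 scale. Of 820 recomputed member values, 809 kept their direction and, where tested, their side of an adjusted p of 0.05, and 9 reversed. The tested values that changed side were DYRK3 in EW8, lost without replicate 1 of EW8 at 0 h, and DYRK1A in TC71, which rose with total counts alone (0.13, adjusted p = 0.0103), so that 2 tested members rose there. By the 2-fold threshold, total counts alone ended the call of DYRK2 in EW8 (-0.99) and added FAM53A in EW8 (1.11) and FAM53B at 0 h (-1.01). FAM53A in EW8 also passed it without EW8 0 h replicate 1 (1.01) or 2 (1.02) and without EW8 48 h replicate 2 (1.07) or 3 (1.11). The reversed values lay near 0 and had passed no test. DYRK3 at 0 h became -0.06 with upper-quartile factors, -0.11 with total counts, and -0.05 without EW8 0 h replicate 3 or TC71 0 h replicate 2 (range without 1 library -0.05 to 0.10). DYRK4 at 0 h became -0.02 with total counts, and DYRK4 in EW8 became -0.01, -0.00 and -0.00 without EW8 0 h replicate 2, EW8 0 h replicate 3 and EW8 48 h replicate 2 (range -0.01 to 0.11). PNRC2 at 0 h became 0.04 without TC71 0 h replicate 1 (range -0.13 to 0.04).

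Total counts alone moved the median of all genes in EW8 from 0.03 to 0.16. All genes downregulated in EW8 went from 554 to 345, the DYRK substrates that fell from 8 to 5 in EW8 and 7 to 4 in TC71, and the related kinases that rose in TC71 from 1 to 3. Related kinases lower in the difference went from 2 to 0. Decapping genes that rose in TC71 went from 4 to 7, those larger in EW8 from 5 to 8 and those lower from 4 to 2. With at least 10 counts in every library, fewer genes were tested. Upregulated and downregulated genes were then 1204 and 306 in EW8, 197 and 36 in TC71, 634 and 98 for the difference and 389 and 979 at 0 h. With the longest transcript as length, DYRK1B over DYRK1A was 0.501 and 3.87 in EW8 and 1.27 and 1.79 in TC71, and FAM53C over FAM53B was 3.84 and 30.9, and 2.34 and 4.17.

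Leaving out 1 library gave 1 to 3 genes of the DREAM list larger in EW8. The count was 1 without EW8 48 h replicate 2, TC71 0 h replicate 1 or TC71 48 h replicate 1. It gave 1 to 3 related kinases lower in the difference (1 without EW8 48 h replicate 2). Decapping genes lower in the difference numbered 2 to 5 (2 without EW8 48 h replicate 3). In TC71, 0 to 2 related kinases rose (0 without TC71 0 h replicate 1 or 2, 2 without TC71 0 h replicate 3 or TC71 48 h replicate 2) and 1 to 4 fell (1 without TC71 0 h replicate 3). Replicate numbers did not pair the libraries, since same-numbered libraries had correlations of -0.138 to -0.0147. With the replicate block, 2290 genes were upregulated and 566 downregulated in EW8, 529 and 134 in TC71, and 1171 and 158 for the difference, with the same number of members called in each. The causes of these changes were not tested. FAM53A in EW8 rests on 17 to 41 counts per library, which limits its precision.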
